A study of Mus with 48 samples.

Results

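Collagens and laminins are the main proteins of the extracellular matrix, and 55 genes for their chains were followed through 4 brain regions of the mouse. The genes were the rows of the deposited expression table whose symbol names a collagen alpha chain or a laminin alpha, beta or gamma chain, 44 collagens and 11 laminins of 23366 gene names. Their mRNA was measured by RNA-seq in cerebellum, cortex, substantia nigra (SN) and striatum of 12 mice, which gave 48 libraries. The mice were female C57BL/6J, bought at 8 weeks of age, and fell into 3 groups of 4. MPTP+EX mice received MPTP and probenecid and then trained on a treadmill over 12 weeks, on 5 days of each week and for 40 min at a time. MPTP mice received the same injections, 10 doses of 25 mg/kg under the skin, and no running. Saline mice were the controls, and the sources used here do not say whether they received probenecid. No group of running mice without MPTP was among the samples, so the effect of running alone cannot be told apart from its effect after MPTP. MPTP is a toxin whose metabolite is taken up by dopaminergic neurons, and probenecid slows its clearance.

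In the brain, most matrix of this kind lies outside the neural tissue proper. The meninges and the sheaths of larger vessels hold fibroblasts, which make fibrils of type I and III collagen. Vessels of every size are wrapped in basement membranes, thin sheets made of a type IV collagen network and a laminin network, joined by nidogen and perlecan. A laminin is a trimer of 1 alpha, 1 beta and 1 gamma chain, while type IV collagen of vessels is built from the chains of Col4a1 and Col4a2. Some members of both families are made by neurons or glia instead. Examples among collagens are the transmembrane Col25a1 and the fibril-associated Col19a1, both found in neurons. No sequence of these genes was at hand, so none is shown. Tissue pieces were dissected by hand and sequenced whole, so more cells of a type and more mRNA per cell cannot be told apart.

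Levels are in FPKM, which counts sequenced fragments relative to transcript length and library size. This unit adjusts for both and allows levels of different genes to be set side by side. Differences are on the log2(FPKM + 1) scale, which understates changes of low genes. A gene was tested where its mean exceeded 1 FPKM, with the moderated test of limma, and was called at a Benjamini-Hochberg adjusted p under 0.05 over all genes of the fit. Values of single mice are given in the order E26, E27, E28 and E29 for MPTP+EX, M6, M16, M21 and M23 for MPTP, and S1 to S4 for saline.

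In 47 libraries the FPKM of all genes summed to between 344700 and 403520, between 12809 and 13593 genes exceeded 1 FPKM, and the median correlation with libraries of the same region was 0.990 to 0.995. The exception was the striatum of E29, an MPTP+EX mouse, whose library summed to 621093 with 11595 genes above 1 FPKM and a correlation of 0.896, and it is shown apart. All striatum values of MPTP+EX mice below rest on the other 3 mice. The collagen and laminin genes showed a further irregularity in the libraries named S1 and S2, both saline, which is described first.

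Lamb2 encodes the laminin beta 2 chain, found in vessels, synapses and the pial membrane. It stood at 27.2, 27.6 and 26.7 FPKM in the cerebellum, cortex and SN of saline mouse S1, against 6.86 to 9.90 FPKM in those regions of the other 3 saline mice. In the striatum, however, the library named S1 had 6.57 FPKM and the one named S2 had 21.7 FPKM. MPTP mouse M16 had 27.7, 21.4, 26.5 and 26.03 FPKM in the cerebellum, cortex, SN and striatum, where the other MPTP libraries had at most 17.3 FPKM. The high level thus followed whole animals, except that in the striatum it came under the name S2.

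**Figure D1:**
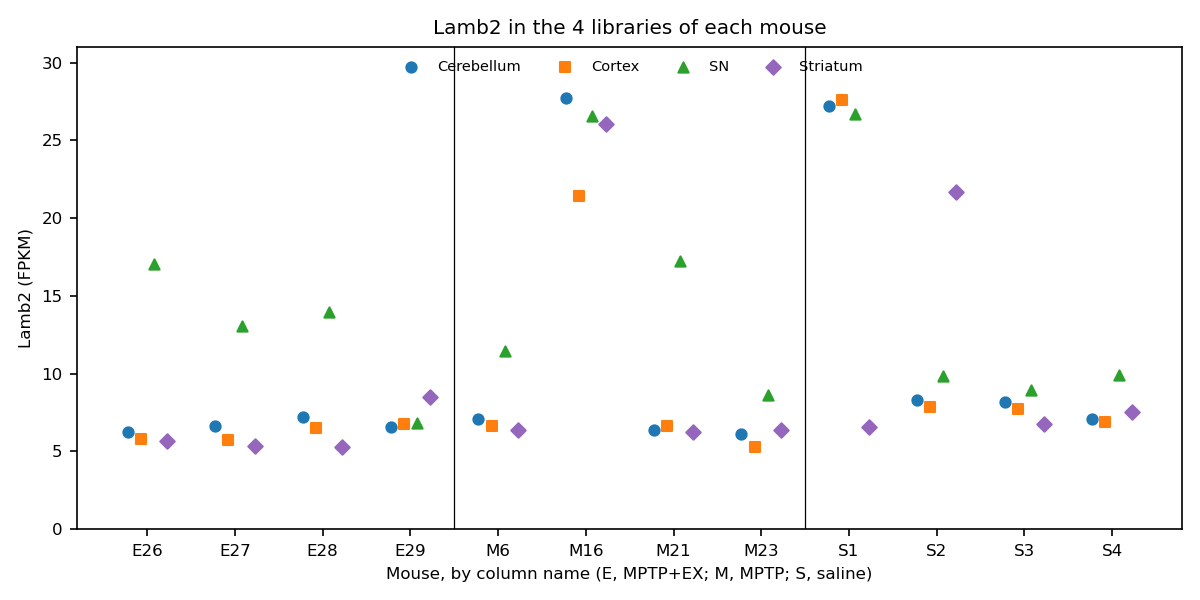
Lamb2 level in FPKM (vertical axis) in the 4 libraries of each of the 12 mice (horizontal axis, by the start of the column name), with a symbol for each region. The 4 libraries of M16 lie between 21.4 and 27.7 FPKM, and among saline mice the high values fall on S1 in 3 regions and on S2 in the striatum.

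Other genes set S1 and S2 apart in the same way. Between S1 and S2, 7 genes differed by more than 1 log2 unit in the same direction in the cerebellum, cortex and SN, and in the striatum all 7 differed in the opposite direction. They were Lamb2, the protease Capn11 and 5 genes of red blood cells, namely Alas2, Beta-s, Hba-a2, Hbb-b1 and Hbb-b2. For the other 5 pairs of saline mice, between 2 and 14 genes met this criterion and between 1 and 3 of them were opposite in the striatum. Genes of blood vary together and count as little more than 1 observation. Over all genes, deviations from the saline mean of each region showed this for the S1 library alone. The striatum library named S1 correlated at 0.307, 0.269 and 0.189 with the cerebellum, cortex and SN of S2, and at -0.140, -0.202 and -0.0183 with those of S1. The striatum library named S2 correlated at 0.203, 0.0950 and 0.0664 with the other libraries of S2, and at -0.0677, -0.110 and 0.0251 with those of S1. Such correlations ranged from -0.202 to 0.282 between libraries named for 1 saline mouse and from -0.393 to 0.307 between those of different mice. These ranges overlap, so the correlations cannot tell whether the 2 libraries were exchanged, and which mouse each came from was not settled. Both libraries are saline, so no comparison of treatments within a region is touched, and the comparison of regions was run without a term for the mouse. Usp19 and Qars, which follow Lamb2 on the chromosome in the GRCm38.p6 annotation, were also high in the same libraries. In the striatum, Usp19 had 64.9 FPKM in M16 and 58.5 FPKM in the library named S2, against 39.98 to 44.5 FPKM in the other 9 libraries. Ccdc71 and Qrich1, which lie to either side of these genes, were not. The sources used here do not say how reads at the border of adjacent genes were assigned. The group means of Lamb2 follow these few libraries. In the cerebellum it averaged 6.66 ± 0.380 FPKM in MPTP+EX, 11.8 ± 10.6 FPKM in MPTP and 12.7 ± 9.70 FPKM in saline mice (SD, n = 4), and without M16 and S1 the MPTP and saline means were 6.51 and 7.86 FPKM (n = 3). Lamb2 was not called in any comparison.

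The levels of the 55 genes spanned a wide range. Over the 47 libraries 6 genes averaged above 10 FPKM, 29 between 1 and 10 FPKM and 20 at or below 1 FPKM, and 9 of the last never exceeded 1 FPKM in any library. Col6a1 was the most abundant, at a mean of 30.7 FPKM, followed by Col4a2 (13.03 FPKM), Lamb2 (10.9 FPKM), Col9a3 (10.8 FPKM), Col11a2 (10.2 FPKM) and Col16a1 (10.1 FPKM). The rank of Lamb2 rests on the high libraries of M16, S1 and S2 described above. Without the high library of each region, its saline means were 7.86, 7.49, 9.55 and 6.95 FPKM in cerebellum, cortex, SN and striatum (n = 3). At the other end, Col10a1, the collagen of hypertrophic cartilage, averaged 0.054 FPKM, and the kidney chains Col4a3 and Col4a4 averaged 0.131 and 0.162 FPKM. In saline mice 37 of the 55 passed the filter, and a further 18 were not tested. Of the 42 genes above 1 FPKM on average in at least 1 region of saline mice, 17 were highest in the SN, 11 in the cortex, 9 in the cerebellum and 5 in the striatum, while 19 were lowest in the cerebellum. The share of all genes that was highest or lowest in each region was not counted. Each region was then compared with the mean of the other 3 regions in the 16 saline libraries.

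**Figure D2:**
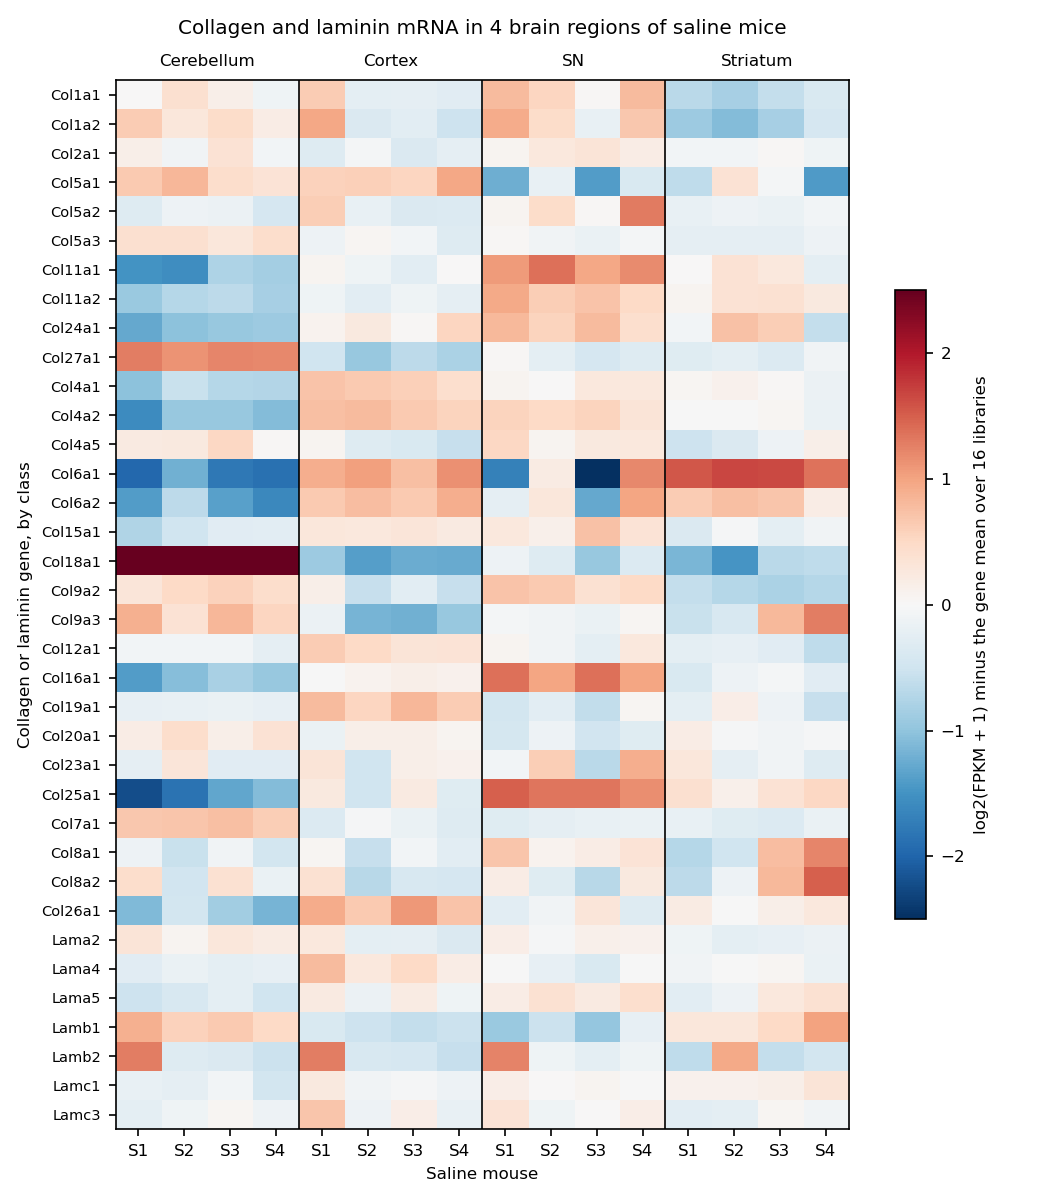
Level of 36 of the 37 tested collagen and laminin genes (rows, by class) in the 16 saline libraries (columns, 4 mice in each of 4 regions). Colour gives log2(FPKM + 1) minus the mean of the gene over the 16 libraries, red above and blue below it, and ends at 2.5 in either direction. Col18a1 was red in all 4 cerebellar libraries, Col25a1 and Col16a1 in all 4 SN libraries, and Col6a1 in all 4 striatal libraries.

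Among laminins, the beta and gamma chains common to vessels were the most abundant. Over the 47 libraries Lamb2, with its high libraries included, averaged 10.9 FPKM, and Lamc1 and Lamb1 averaged 6.42 and 5.13 FPKM. The alpha chains Lama2, Lama5 and Lama4 averaged 2.211, 2.197 and 1.048 FPKM. Lama1, the alpha chain of the pial membrane, and Lama3 averaged 0.770 and 0.716 FPKM, and neither was tested in saline mice. Summed over chains in saline mice, type IV collagen came to 11.3 ± 1.89 FPKM in the cerebellum, 32.5 ± 3.01 FPKM in the cortex, 27.7 ± 1.25 FPKM in the SN and 20.6 ± 0.778 FPKM in the striatum (SD, n = 4). Type VI collagen came to 8.44 ± 2.86, 54.6 ± 6.05, 28.8 ± 26.99 and 77.5 ± 7.68 FPKM in the same regions, so the SN libraries were far more uneven than those of the other regions. The 2 multiplexins, Col15a1 and Col18a1, came to 33.9 FPKM in the cerebellum and 3.38 to 5.89 FPKM elsewhere.

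The cerebellum stood out by Col18a1, the chain of type XVIII collagen, a component of basement membranes whose end fragment is endostatin. Col18a1 had 34.7, 32.0, 30.4 and 34.1 FPKM in the cerebellum of saline mice, against means of 1.42, 3.16 and 1.86 FPKM in cortex, SN and striatum. The difference was 3.49 ± 0.15 log2 units (SE, adjusted p = 7.8e-12), and the cerebellar values lay above all 12 others. Summed markers of vessel and fibroblast cells did not show a difference of this size. The 16 endothelial markers summed to 181 to 212 FPKM in the cerebellum and 211 to 264, 187 to 225 and 208 to 234 FPKM in cortex, SN and striatum of saline mice. The 20 markers of meningeal and vascular fibroblasts summed to 74.7 to 105 FPKM in the cerebellum. All of these markers were in the table, and none was at 0 throughout a region. The source of the cerebellar Col18a1 was not tested.

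Other collagens high in the cerebellum were Col27a1, a fibrillar collagen of cartilage, with 10.7 FPKM against 2.89 FPKM as the mean of the other regions, and Col7a1, which forms anchoring fibrils in skin, with 2.79 against 1.02 FPKM. Lamb1, the laminin beta 1 chain, had 9.80, 7.72, 8.21 and 7.25 FPKM there, against a mean of 4.51 FPKM elsewhere. In all, 11 of 37 tested members rose in the cerebellum and 15 fell, where 37% and 32.2% of all 13419 genes did so. The type IV chains of vessels were among those that fell. Col4a1 had 2.93, 4.40, 3.85 and 3.80 FPKM in the cerebellum, against means of 11.1, 7.91 and 7.05 FPKM in cortex, SN and striatum, and all cerebellar values lay below all others. Col4a2 fell by 1.52 ± 0.09 log2 units. Col25a1, Col16a1, Col11a1 and Col24a1 fell as well, by 1.39 to 2.15 log2 units.

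In the cortex, the type IV chains of vessels were highest. Col4a1 had 12.1, 11.6, 11.01 and 9.67 FPKM in the cortex of saline mice, above all 12 libraries of the other regions. Col4a1 and Col4a2 rose by 0.79 ± 0.08 and 0.92 ± 0.09 log2 units, with cortical means of 11.1 and 20.002 FPKM. Lama4, the alpha 4 chain of endothelial laminin, rose by 0.58 log2 units, with S1 the highest of its 4 libraries (2.56, 1.46, 1.92 and 1.33 FPKM).

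Col19a1, known from interneurons, and Col26a1 rose in the cortex too, with 4.92 and 5.23 FPKM, against 2.12 and 2.012 FPKM as the mean of the other regions. In the cortex, 11 of 37 members rose and 9 fell, against 19.9% and 38.5% of all genes. Col18a1, Col9a3, Col27a1 and Lamb1 were the members that fell most. Endothelial markers summed to 211 to 264 FPKM in the cortex, and this range overlapped with those of the other regions. Markers of pericytes and smooth muscle summed to 78.8 to 124 FPKM in the cortex of saline mice. In the cerebellum, SN and striatum they summed to 75.3 to 88.5, 86.2 to 115 and 82.4 to 93.2 FPKM. The part of vessel cells in the cortical level of the type IV chains was not tested.

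The SN was marked by Col25a1, Col16a1 and the chains of type XI collagen. Col25a1, a transmembrane collagen of neurons that is also found in amyloid plaques, had 15.5, 13.7, 13.8 and 11.96 FPKM in the SN of saline mice, against 0.998, 4.67 and 6.47 FPKM on average in cerebellum, cortex and striatum. It rose by 1.78 ± 0.17 log2 units (adjusted p = 2.7e-07) and did not overlap with the other regions. Col16a1, a fibril-associated collagen, had 22.8, 17.4, 22.8 and 17.2 FPKM in the SN, against a mean of 6.43 FPKM elsewhere. Col11a1 and Col11a2, which set the width of fibrils, had 10.4 and 16.8 FPKM in the SN, against 3.29 and 8.77 FPKM. None of these 4 overlapped with the other regions. The chains of type I collagen, Col1a1 and Col1a2, rose by 0.71 and 0.63 log2 units but overlapped with the other regions. In the SN 15 of 37 members rose and 8 fell, against 37.7% and 25.9% of all genes. Col5a1 and Lamb1 were among those that fell, by 1.06 and 0.89 log2 units.

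Genes that act with these chains were counted in the same way and were not tested against other genes. The counts are to be read against the 37.7% of all genes that rose and 25.9% that fell in the SN, 37% and 32.2% in the cerebellum, and 19.8% and 30% in the striatum. Of 24 tested genes for collagen processing, 15 rose and 5 fell in the SN. Sparc, a collagen-binding protein, had 809 FPKM in the SN and 204 FPKM as the mean of the other regions, whereas Bmp1, the protease that trims procollagen, had 16.01 and 54.2 FPKM and was highest in the cerebellum at 100.4 FPKM. Of 16 genes for matrix partners made by fibroblasts, 10 rose and 1 fell in the SN, and in the striatum none rose and 10 fell. Of 13 receptors for collagen and laminin, 7 rose and 2 fell in the SN, among them Itgb4, a laminin receptor subunit, with 11.2 against 4.75 FPKM. In the cerebellum, Itga7, another laminin receptor subunit, had 24.8 against 5.80 FPKM. Of 11 partners in the basement membrane, 3 rose and 3 fell in the SN and 2 rose and 6 fell in the cerebellum. Of 13 matrix proteases and inhibitors, 8 rose and 2 fell in the SN, and Timp2, an inhibitor, had 114 against 56.7 FPKM.

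In the striatum the leading genes were those of type VI collagen, which forms beaded filaments near basement membranes. Col6a1 had 64.9, 69.7, 69.5 and 56.4 FPKM in the striatum of saline mice and 40.9, 44.8, 36.5 and 48.0 FPKM in the cortex, against 4.71, 8.77, 5.45 and 5.15 FPKM in the cerebellum. It rose in the striatum by 2.08 ± 0.48 log2 units (adjusted p = 0.0019). The SN values of Col6a1 were 5.90, 24.9, 1.89 and 50.3 FPKM, so its 4 SN libraries spread over nearly the whole range of the other regions. The call of Col6a1 in the cortex, 1.27 log2 units, was lost without S1 (adjusted p = 0.12) or S2 (adjusted p = 0.060).

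Col6a2 rose by 0.75 log2 units in the striatum, a call that was lost without any of S1, S2 and S3. Lamb1 rose by 0.70 log2 units, with 6.16, 6.16, 7.31 and 10.8 FPKM. Col1a1 and Col1a2 were lowest in the striatum, with 1.43, 1.15, 1.54 and 1.96 FPKM and 1.55, 1.27, 1.69 and 2.58 FPKM, and fell by 0.83 and 1.09 log2 units. The fibroblast markers were lowest there as well, at 29.2 to 72.8 FPKM in sum. In the striatum 6 of 37 members rose and 10 fell, against 19.8% and 30% of all genes. The region calls of saline mice recurred in the other animals. Of 85 calls in saline mice, 83 could be tested in each other group. In the same direction, 78 were made in MPTP+EX mice and 75 in MPTP mice. Each region was set against the other 3, so 1 gene can hold several linked calls. The share that recurred over all genes was not counted.

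Within a region, several chains varied between libraries together with markers of other tissue. In the striatum, Col9a3, a chain of the fibril-associated type IX collagen, had 11.6, 6.81 and 7.72 FPKM in MPTP+EX, 6.74, 11.4, 7.51 and 13.8 FPKM in MPTP and 6.59, 7.41, 18.4 and 25.9 FPKM in saline mice. S4, S3, M23 and E26 were highest, closely followed by M16. Summed markers of the choroid plexus, 18 of 18 in the table, were 974, 158 and 145 FPKM in MPTP+EX, 119, 156, 172 and 1129.9 FPKM in MPTP and 131, 224, 2020.5 and 3141 FPKM in saline mice, and were highest in S4, S3, M23 and E26. Col8a1 and Col8a2, short-chain collagens, were also highest in S4, S3 and M23. The share of choroid plexus in these values was not tested.

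In the SN, the fibroblast collagens varied widely. Col1a2 had 20.4, 10.4, 10.1 and 3.43 FPKM in MPTP+EX, 5.69, 4.93, 9.80 and 4.10 FPKM in MPTP and 8.19, 5.58, 3.23 and 6.70 FPKM in saline mice. The 20 fibroblast markers summed to 439.5, 205, 239.9 and 57.2 FPKM in MPTP+EX, 139.7, 100.4, 220.3 and 77.9 FPKM in MPTP and 182, 156, 65.2 and 159 FPKM in saline mice. E26 was the highest and E29 and S3 the lowest on both, so that the 4 MPTP+EX mice held the highest value and nearly the lowest. Col3a1 had 3.48, 2.30, 1.82 and 0.689 FPKM in MPTP+EX mice with the same order of E26 and E29.

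Markers of neighbouring brain regions also went with some chains. In the SN, Col18a1 was highest in M21, at 7.80 FPKM, against 1.46 to 4.62 FPKM in the other 11 libraries. Markers of cerebellar neurons summed to 694 FPKM in that library and to between 63.4 and 336 FPKM in the others. In the striatum, Col5a1, a regulator of type I fibrils, had 8.90, 3.73 and 2.37 FPKM in MPTP+EX, 3.70, 1.62, 1.05 and 1.86 FPKM in MPTP and 3.30, 7.61, 5.48 and 1.52 FPKM in saline mice. Markers of cortical excitatory neurons summed to 438, 189 and 205, to 227, 96.2, 90.6 and 202 and to 343, 333, 345 and 118 FPKM in the same libraries, and Col5a1 averaged 9.76 FPKM in the cortex of saline mice. E26, S2 and S3 were highest in Col5a1, while E26, S3, S1 and S2 were highest in the markers. In the SN, Col6a1 had 14.6, 4.73, 6.53 and 3.22 FPKM in MPTP+EX, 21.7, 14.997, 10.1 and 9.81 FPKM in MPTP and 5.90, 24.9, 1.89 and 50.3 FPKM in saline mice, and the same cortical markers summed to 81.7, 80.1, 66.8 and 71.2, to 162, 122, 110.0 and 212 and to 84.3, 133, 70.9 and 169 FPKM. S4, the highest in Col6a1, had the highest marker sum of the saline mice, while M23, the highest of all in the markers, had 9.81 FPKM. The part of dissection in these differences was not tested. In the cortex of saline mice, S1 alone was high in type I and III collagen. Col1a2 had 8.44, 2.77, 3.03 and 2.39 FPKM in saline mice, with fibroblast markers at 191, 40.1, 79.0 and 45.5 FPKM and choroid plexus markers at 643, 86.3, 155 and 121 FPKM.

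**Figure D3:**
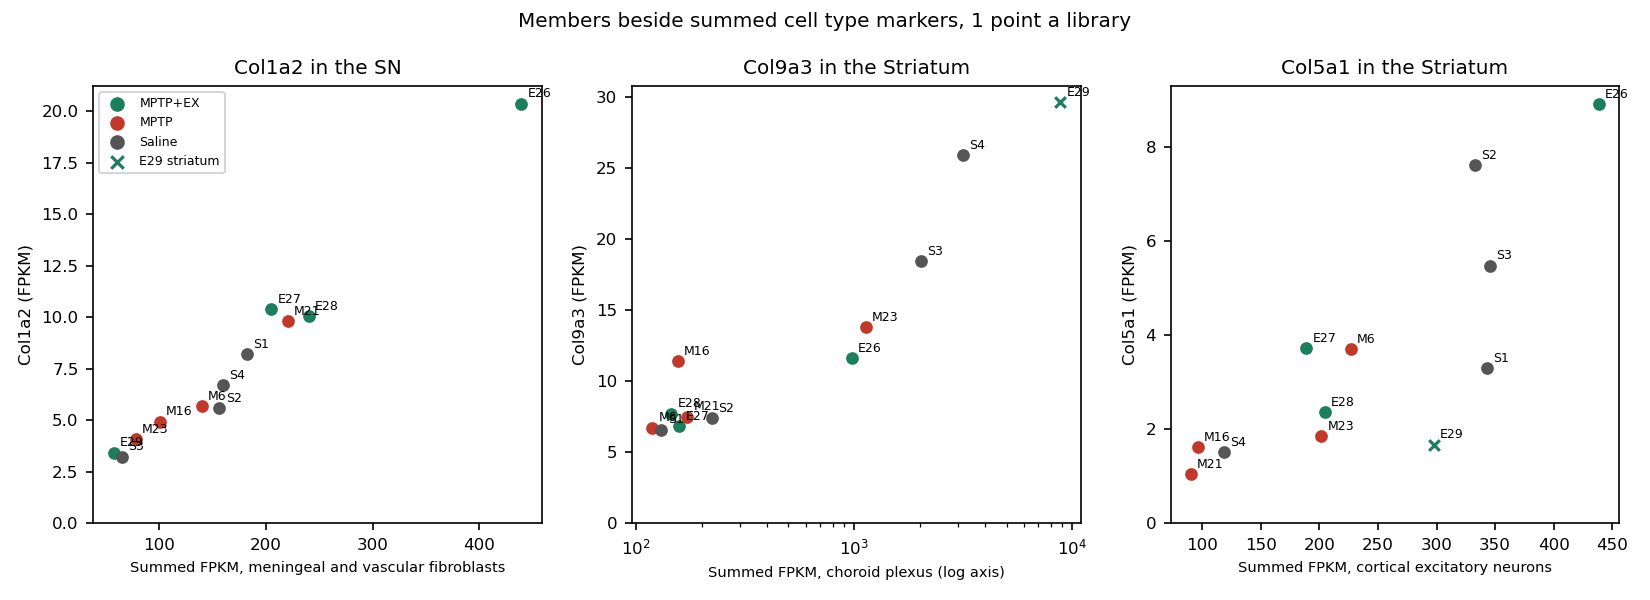
Level of a collagen (vertical axis, FPKM) beside the summed FPKM of marker genes (horizontal axis) in each library. Left, Col1a2 and fibroblast markers in the SN, with E26 at 20.4 FPKM and S3 at 3.23 FPKM. Middle, Col9a3 and choroid plexus markers in the striatum on a log axis, with S4 at 25.9 FPKM and, as a cross, the library of E29 at 29.6 FPKM. Right, Col5a1 and markers of cortical excitatory neurons in the striatum.

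No collagen or laminin passed the adjusted threshold in any of the 12 comparisons of treatments within a region. Counts below are therefore given at an unadjusted p under 0.05, the threshold the study used, beside the share of all tested genes that met it. A single difference is followed by its adjusted p from limma, and each one given below met the unadjusted threshold unless stated. At this threshold the most frequent members were the type IV chains. In MPTP+EX against MPTP mice, Col4a1 was higher at an unadjusted p under 0.05 in all 4 regions and Col4a2 in the cortex and SN.

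In the cortex, Col4a1 had 12.8, 17.8, 13.3 and 12.2 FPKM in MPTP+EX mice, 10.1, 9.28, 11.3 and 10.4 FPKM in MPTP mice and 12.1, 11.6, 11.01 and 9.67 FPKM in saline mice. All 4 MPTP+EX values lay above all values of the other groups, and the difference from MPTP was 0.40 ± 0.10 log2 units (adjusted p = 0.61). In the SN it had 9.48, 10.2, 8.48 and 8.99 FPKM in MPTP+EX mice, 8.03, 7.33, 5.35 and 7.52 FPKM in MPTP mice and 7.42, 7.08, 8.51 and 8.61 FPKM in saline mice. MPTP+EX did not overlap with MPTP, and the difference was 0.36 ± 0.11 log2 units (adjusted p = 0.48). In the cerebellum it had 3.88, 3.64, 3.82 and 3.41 FPKM in MPTP+EX mice, 2.74, 2.34, 3.23 and 3.08 FPKM in MPTP mice and 2.93, 4.40, 3.85 and 3.80 FPKM in saline mice, a difference of 0.29 ± 0.11 log2 units between MPTP+EX and MPTP (adjusted p = 0.76). Here the MPTP mice lay below all MPTP+EX mice and overlapped with saline mouse S1. In the striatum it had 8.13, 8.14 and 6.71 FPKM in 3 MPTP+EX mice, 6.14, 5.53, 5.002 and 6.85 FPKM in MPTP mice and 7.30, 7.57, 7.11 and 6.21 FPKM in saline mice (difference of MPTP+EX from MPTP 0.33 ± 0.10, adjusted p = 0.37). With the library of E29, at 2.37 FPKM, this difference was -0.0044 log2 units, while the median of all genes moved by -0.11.

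**Figure D4:**
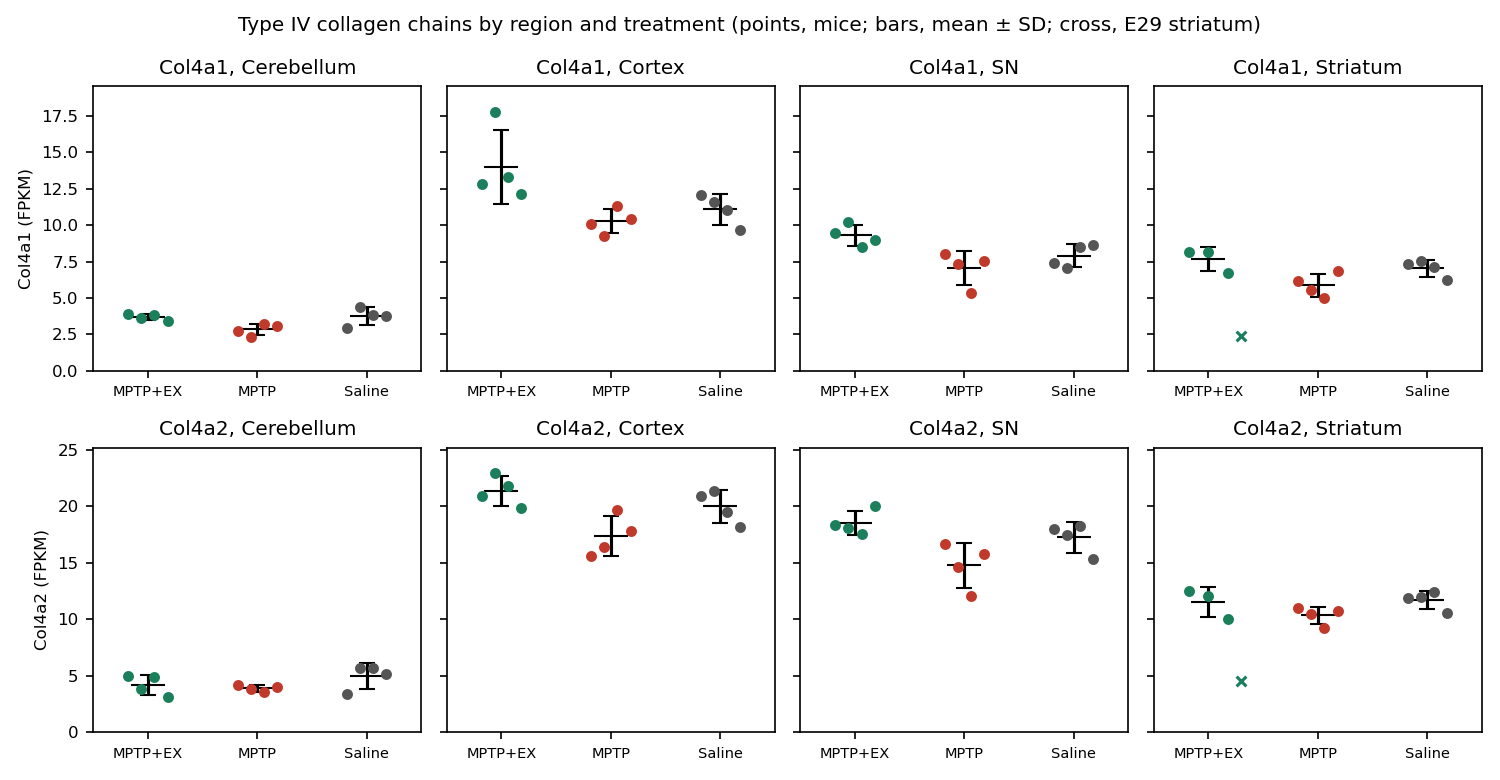
Levels of Col4a1 (upper row) and Col4a2 (lower row) in FPKM by region and treatment. Points are mice, horizontal marks and bars the mean ± SD of 4 mice (3 for MPTP+EX in the striatum), and the cross is the striatum library of E29. In the cortex the 4 MPTP+EX values of Col4a1 lie between 12.2 and 17.8 FPKM, above those of MPTP mice at 9.28 to 11.3 FPKM.

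Col4a2 had 20.9, 22.9, 21.8 and 19.8 FPKM in the cortex of MPTP+EX mice, 15.6, 16.5, 19.7 and 17.8 FPKM in MPTP mice and 20.9, 21.4, 19.5 and 18.2 FPKM in saline mice. The MPTP+EX values lay just above all MPTP values (difference 0.29 ± 0.07, adjusted p = 0.61). In the SN its values were 18.4, 18.1, 17.6 and 20.02 FPKM in MPTP+EX mice, 16.7, 14.6, 12.1 and 15.8 FPKM in MPTP mice and 18.01, 17.5, 18.2 and 15.3 FPKM in saline mice, and MPTP+EX again lay above MPTP (difference 0.31 ± 0.09, adjusted p = 0.47). Against saline, MPTP mice had lower Col4a2 in the cortex and SN (differences -0.19 and -0.22, adjusted p = 0.18 and 0.39) and lower Col4a1 in the cerebellum and striatum (differences -0.30 and -0.23, adjusted p = 0.31 and 0.46). The comparisons of MPTP+EX with MPTP and of MPTP with saline share the MPTP libraries. Summed endothelial markers in the cortex were 231, 213, 212 and 247 FPKM in MPTP+EX, 200.4, 214, 209 and 225 FPKM in MPTP and 264, 260.4, 223 and 211 FPKM in saline mice, and their ranges overlapped between groups. Cldn5, a tight junction protein of brain endothelium, had 15.4, 28.998, 25.3 and 20.4 FPKM in MPTP+EX, 15.7, 15.2, 14.7 and 11.8 FPKM in MPTP and 26.9, 21.98, 26.1 and 26.9 FPKM in saline mice, so MPTP lay below all saline mice. Of the 16 markers, 7 were lower and 1 higher in MPTP against saline mice at an unadjusted p under 0.05, and 1 was higher and 1 lower in MPTP+EX against MPTP mice. Of 14 tested markers of pericytes and smooth muscle, 4 were lower in MPTP against saline mice and none met that threshold in MPTP+EX against MPTP mice. Of all genes tested in the cortex, 10.5% were lower and 9.53% higher in MPTP against saline mice. In MPTP+EX against MPTP mice, 3.23% of them were higher and 2.5% lower. The part of vessel cells in the type IV chains was not tested.

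A fit on the mean of each mouse over its regions was added after these values were seen. Each library was first set against the mean of the 3 treatment groups of its region, and the mean was then taken over the regions of each mouse (3 regions for E29). Col4a1 then stood at 0.18, 0.30, 0.09 and 0.07 log2 units in MPTP+EX, -0.14, -0.26, -0.24 and -0.08 in MPTP and -0.03, 0.07, 0.05 and -0.03 in saline mice. All MPTP+EX mice were above all MPTP mice, and the difference was 0.34 ± 0.057 log2 units (adjusted p = 0.096), which did not pass adjustment. Of 35 tested members, 3 were higher at an unadjusted p under 0.05, namely Col4a1, Col4a2 and Col5a3, and none was lower. Of all genes, 4.68% were higher and 4.24% lower.

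In MPTP against saline mice, the same fit gave 8 of 35 members lower and none higher at an unadjusted p under 0.05. Of all genes, 8.85% were lower and 9.69% higher. The 8 members are named next. They were Lama5, Col4a2, Col4a1, Col26a1, Col1a1, Col4a5, Col5a1 and Col15a1. Lama5, the alpha 5 chain of mature vessel laminin, was the 1 member that passed adjustment, where 0.589% of all genes did. It stood at 0.02, 0.02, -0.16 and -0.12 log2 units in MPTP+EX, -0.14, -0.13, -0.14 and -0.12 in MPTP and 0.10, 0.12, 0.31 and 0.24 in saline mice, and fell in MPTP against saline mice by 0.33 ± 0.060 (adjusted p = 0.037). MPTP did not overlap with saline. The call was lost when any 1 of the 8 MPTP and saline mice was left out, with adjusted p between 0.051 and 0.13, and was kept with the S1 and S2 striatum libraries exchanged.

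The SN is the region whose dopaminergic neurons MPTP removes, so their transcripts check the labels. Slc6a3, the dopamine transporter of these neurons, averaged 27.97 FPKM in MPTP+EX, 28.9 FPKM in MPTP and 219 FPKM in saline mice, and fell by 2.84 log2 units in MPTP against saline mice (adjusted p = 1.0e-04). Among collagens, Col25a1 had 5.72, 7.98, 5.91 and 8.36 FPKM in MPTP+EX mice, 8.08, 8.29, 2.76 and 6.29 FPKM in MPTP mice and 15.5, 13.7, 13.8 and 11.96 FPKM in saline mice. Every mouse that received MPTP lay below every saline mouse. The difference of MPTP from saline was -1.08 ± 0.24 log2 units (adjusted p = 0.071), and that of MPTP+EX from saline was -0.89 ± 0.24 (adjusted p = 0.096). M21 was the lowest, and without it the difference of MPTP from saline was -0.79 (adjusted p = 0.033).

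Lama5 in the SN had 2.68, 2.92, 1.99 and 1.41 FPKM in MPTP+EX mice, 1.88, 1.91, 1.91 and 1.81 FPKM in MPTP mice and 3.10, 3.69, 3.21 and 3.78 FPKM in saline mice. Again no mouse given MPTP reached the saline range. The difference of MPTP from saline was -0.63 ± 0.14 log2 units (adjusted p = 0.066), and that of MPTP+EX from saline was -0.47 ± 0.14 (adjusted p = 0.12). A single limma fit over all 4 regions took its spread from all of them and counted the libraries of 1 mouse as separate samples. In that fit, Lama5 and Col25a1 in the SN both passed adjustment in MPTP against saline, with adjusted p of 0.0021 and 0.0068. It holds no further SN mice. In the cortex Lama5 had 2.19, 2.14, 1.96 and 2.69 FPKM in MPTP+EX mice, 2.011, 1.94, 2.13 and 1.68 FPKM in MPTP mice and 3.17, 2.22, 3.15 and 2.32 FPKM in saline mice (MPTP against saline -0.33 ± 0.11, adjusted p = 0.13).

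Of 35 members tested in the SN, none was higher and 3 were lower in MPTP against saline mice at an unadjusted p under 0.05, where 5.69% and 5.61% of all genes were. The third was Col4a2. One gene of collagen processing passed adjustment there. Glt25d2, which adds galactose to collagen, averaged 2.53 FPKM in MPTP+EX, 2.49 FPKM in MPTP and 4.21 FPKM in saline mice, and fell by 0.59 log2 units in MPTP (adjusted p = 0.043) and by 0.56 in MPTP+EX mice (adjusted p = 0.044), both against saline. Of the other 23 tested genes of collagen processing, none passed adjustment in either comparison. Among all genes tested in the SN, 0.638% passed in MPTP and 1.02% in MPTP+EX mice, both against saline.

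Between MPTP+EX and MPTP mice, 7 of 35 members were higher and 1 was lower in the SN at an unadjusted p under 0.05, where 3.4% and 3.89% of all genes were, and none passed adjustment. The median difference over the 35 was 0.15 log2 units, beside 0.01 over all genes, and was 0.0828 without E26, 0.0902 without M23 and 0.229 without E29. Markers of pericytes and smooth muscle, which make type IV collagen, summed to 184, 180.0, 139.9 and 78.8 FPKM in MPTP+EX, 113, 106, 129 and 88.4 FPKM in MPTP and 115, 86.2, 96.4 and 102 FPKM in saline mice. E26, E27 and E28 thus lay above all MPTP mice on this sum and E29 below them. Vtn, the most abundant marker, had 111.8, 83.8, 77.5 and 29.2 FPKM in MPTP+EX and 51.8, 47.5, 70.5 and 37.2 FPKM in MPTP mice. Rgs5 had 10.5, 16.98, 17.04 and 13.7 FPKM in MPTP+EX and 17.4, 17.3, 15.2 and 15.7 FPKM in MPTP mice. Pdgfrb overlapped between these groups as well. The other markers are not given singly, and the part of these cells was not tested. The 7 higher members were Col9a2, Col4a2, Col4a1, Col5a3, Col3a1, Lamc1 and Col1a1. Col9a2 had 10.3, 8.89, 10.002 and 7.69 FPKM in MPTP+EX mice, 6.69, 5.87, 8.02 and 6.62 FPKM in MPTP mice and 7.69, 7.35, 5.96 and 6.56 FPKM in saline mice, with an overlap between E29 and M21. The difference of MPTP+EX from MPTP was 0.39 ± 0.11 log2 units (adjusted p = 0.43).

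Lamc1, the gamma 1 chain shared by most laminins, had 8.64, 9.28, 10.02 and 6.93 FPKM in MPTP+EX mice, 7.34, 7.63, 7.05 and 6.14 FPKM in MPTP mice and 6.87, 6.09, 6.35 and 5.94 FPKM in saline mice. MPTP+EX lay just above saline, with E29 nearest to it, and the difference was 0.40 ± 0.10 log2 units (adjusted p = 0.079). Without E29, Lamc1 and Col9a2 both passed adjustment against saline (adjusted p = 0.013 and 0.041). In MPTP+EX against saline, 5 of 35 members met an unadjusted p under 0.05 in either direction, as did 15.8% of all genes, and without E29 12 were higher and 2 lower, where 13.3% and 8.85% of all genes were. Oligodendrocyte markers in the SN summed to 6556 to 9694 FPKM in MPTP+EX, 6081 to 8153 FPKM in MPTP and 5158 to 6554 FPKM in saline mice, the endothelial markers to 237 to 266, 233 to 259 and 187 to 225 FPKM. All 8 mice given MPTP thus lay above all saline mice on the endothelial sum, whose most abundant markers were Slc2a1 and Ly6c1. Single markers did not all follow the sum. Cldn5 had 18.2, 14.8, 18.4 and 11.99 FPKM in MPTP and 23.8, 16.2, 27.8 and 21.05 FPKM in saline mice. Pecam1 and Flt1 overlapped between these groups, and the other markers are not given singly. Cortical excitatory markers summed to 66.8 to 81.7 FPKM in the SN of MPTP+EX mice, 110.0 to 212 FPKM in MPTP mice and 70.9 to 169 FPKM in saline mice, so MPTP+EX lay below all MPTP mice. The 1 lower member in that comparison was Col19a1, a cortical gene in these data (difference -0.42 ± 0.15, adjusted p = 0.58). The part of these cells and of dissection in the differences was not tested.

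Col1a1 and Col3a1 were also higher in the SN of MPTP+EX than of MPTP mice (differences 0.70 and 0.71, adjusted p = 0.66 and 0.55). Col1a1 had 11.6, 7.45, 5.62 and 2.64 FPKM in MPTP+EX and 2.90, 2.81, 4.82 and 3.29 FPKM in MPTP mice, so E29 lay below all 4 MPTP mice while E26 was far above them. These are the genes that varied with the fibroblast markers. The number of members higher in MPTP+EX than in MPTP mice was 12 without E29, where 5.79% of all genes were higher, and 7 without E26, where 3.66% were. Of 16 tested matrix partners made by fibroblasts, 15 had a positive difference and 1 met an unadjusted p under 0.05, Fbn1, the main protein of microfibrils.

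**Figure D5:**
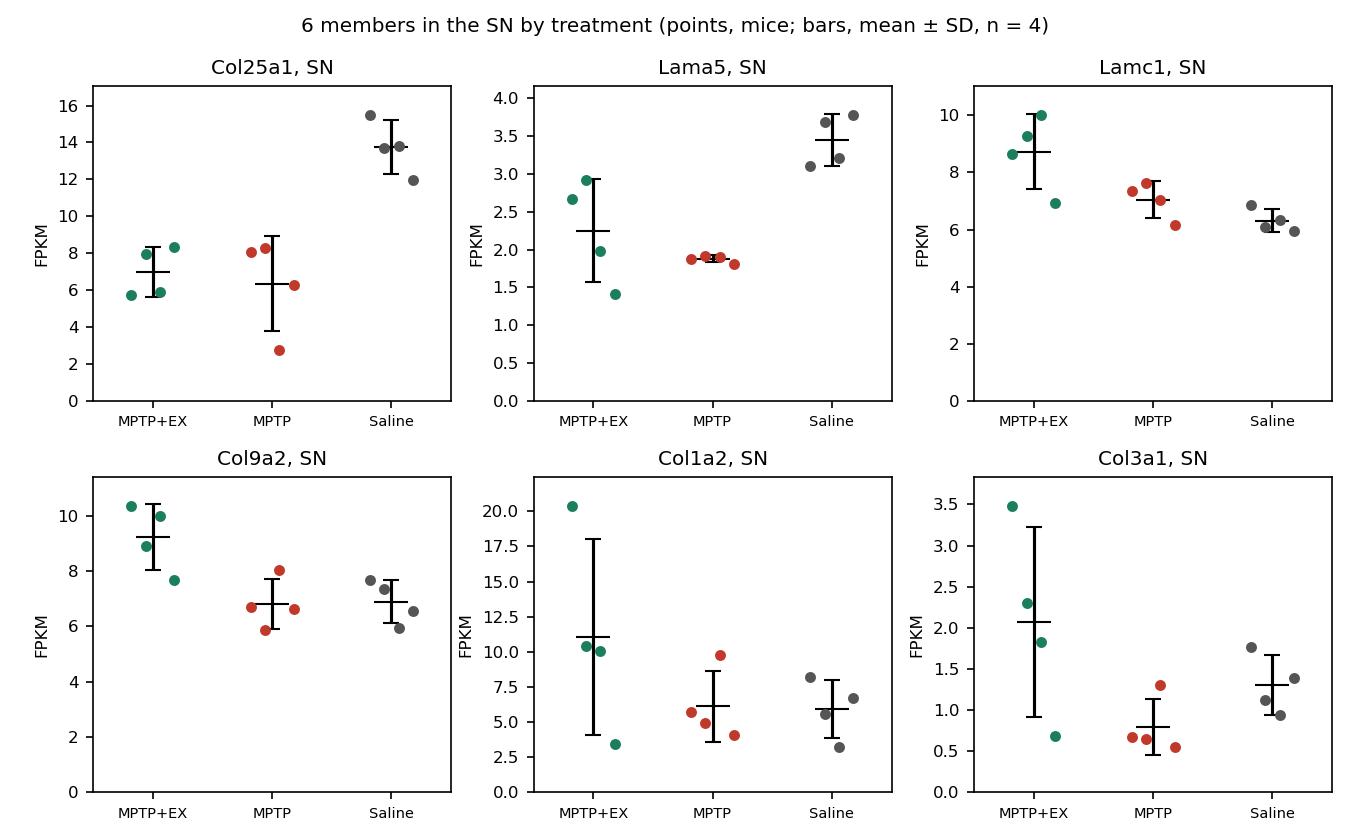
Levels in FPKM of 6 collagen and laminin genes in the SN by treatment. Points are mice and horizontal marks with bars the mean ± SD (n = 4). Col25a1 and Lama5 in MPTP+EX and MPTP mice lie below all saline mice, and Col1a2 and Col3a1 in MPTP+EX mice span from E29 at 3.43 and 0.689 FPKM to E26 at 20.4 and 3.48 FPKM.

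In the cortex of MPTP against saline mice, 1 of 34 members was higher and 7 were lower at an unadjusted p under 0.05, where 9.53% and 10.5% of all genes were. The lower ones were Col11a2, Col26a1, Lama5, Col4a2, Col15a1, Col18a1 and Col16a1, and none passed adjustment. Col11a2 had 6.21, 6.98, 6.65 and 8.32 FPKM in MPTP+EX mice, 7.16, 7.77, 6.56 and 5.63 FPKM in MPTP mice and 9.22, 8.10, 9.11 and 8.35 FPKM in saline mice. MPTP lay below saline without overlap (difference -0.32 ± 0.10, adjusted p = 0.10). Col15a1, a basement membrane collagen of vessels, had 1.96, 2.05, 1.61 and 1.76 FPKM in MPTP+EX mice, 2.34, 1.70, 1.13 and 2.03 FPKM in MPTP mice and 2.46, 2.43, 2.53 and 2.31 FPKM in saline mice, and M6 overlapped with saline (difference -0.31 ± 0.12, adjusted p = 0.18). The 1 higher member was Col25a1 (difference 0.40 ± 0.16, adjusted p = 0.19).

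Most members leaned the same way in the cortex. Of 34 members, 30 had a negative difference, with a median of -0.14 log2 units beside 0.00 over all genes. Without S1, whose fibroblast and choroid plexus markers were high, 25 of 32 were negative and the median was -0.10. All 13 tested matrix partners of fibroblasts and 19 of 23 genes of collagen processing also had negative differences, 2 and 7 of them at an unadjusted p under 0.05. Fibroblast markers in the cortex summed to 48.7 to 73.6 FPKM in MPTP+EX, 36.6 to 59.6 FPKM in MPTP and 40.1 to 191 FPKM in saline mice, and microglial markers to 270.3 to 320.1, 257 to 278 and 296 to 357 FPKM. Microglial markers in MPTP mice were thus below those of all saline mice. The part of these cells in the difference was not tested. Mmp14, a membrane-bound collagenase, averaged 3.55 FPKM in MPTP and 5.98 FPKM in saline mice (difference -0.60, adjusted p = 0.068).

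Between MPTP+EX and MPTP mice, Col4a1 and Col4a2 were the 2 of 34 cortical members higher at an unadjusted p under 0.05 and none was lower, where 3.23% and 2.5% of all genes were. In MPTP+EX against saline mice, 6 of 34 met that threshold in either direction, as did 17.1% of all genes. Col4a1 was the higher one, and Col11a2, Col16a1, Col26a1, Col15a1 and Col9a3 were lower, where 8.34% of all genes were higher and 8.76% lower.

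In the cerebellum of MPTP against saline mice, 3 of 31 members were lower and none was higher at an unadjusted p under 0.05, where 5.75% and 6.13% of all genes were. Col1a1 had 2.65, 2.66, 2.15 and 2.61 FPKM in MPTP+EX mice, 1.91, 1.90, 2.08 and 2.37 FPKM in MPTP mice and 2.86, 4.06, 3.28 and 2.57 FPKM in saline mice. MPTP lay below saline without overlap (difference -0.44 ± 0.11, adjusted p = 0.23). Col5a1 had 6.97, 7.06, 6.78 and 6.93 FPKM in MPTP+EX mice, 7.15, 7.41, 7.13 and 6.29 FPKM in MPTP mice and 9.54, 10.9, 8.04 and 7.48 FPKM in saline mice, and every mouse given MPTP lay below every saline mouse (difference of MPTP from saline -0.31 ± 0.09, adjusted p = 0.26).

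Col4a1 was the third. The count of lower members in the cerebellum was 7 without M16 and 5 without S4. The share of all genes in these fits is not given here, so the counts are not set against it. The MPTP+EX mice were set against MPTP mice next. Col4a1, Col5a3 and Col20a1 were higher and none was lower, where 3.29% and 2.49% of all genes were. In MPTP+EX against saline mice, 5 of 31 were lower, Col5a1, Col6a2, Col6a1, Col11a2 and Col1a1, and none higher, while 16.9% of all genes met the threshold in either direction, 7.1% lower and 9.78% higher. Fibroblast markers in the cerebellum summed to 73.3 to 90.6 FPKM in MPTP+EX, 71.2 to 89.6 FPKM in MPTP and 74.7 to 105 FPKM in saline mice, and these ranges overlapped.

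In the striatum of MPTP against saline mice, Col4a1, Col11a1 and Col27a1 were the 3 of 32 members lower at an unadjusted p under 0.05 and none was higher, where 4.79% and 5.34% of all genes were. In 3 MPTP+EX against 4 MPTP mice, Col4a1 and Col24a1 were higher and none lower, where 4.91% and 5.29% of all genes were. In MPTP+EX against saline mice, Lamc1 alone of 32 met the threshold, as did 10.2% of all genes, with 7.22, 10.4 and 7.89 FPKM in 3 MPTP+EX mice and 6.53, 6.50, 6.76 and 7.77 FPKM in saline mice, which overlapped. Col24a1, a fibrillar collagen, had 3.08, 2.11 and 1.48 FPKM in MPTP+EX, 1.64, 0.784, 0.697 and 0.968 FPKM in MPTP and 1.499, 3.31, 2.99 and 0.732 FPKM in saline mice. S2, E26 and S3 were highest, the libraries that were also highest in Col5a1 and, together with S1, in markers of cortical neurons.

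Whether the regions responded differently was tested over 47 libraries. No member passed adjustment in either test, in which the libraries of 1 mouse were treated as separate samples. With the mouse as a replicate block, Col25a1 alone passed in the MPTP response (adjusted p = 0.045), as did 1.02% of all genes. For MPTP against saline, 3 of 35 members met an unadjusted p under 0.05, among them Col25a1 and Lama5, where 12.5% of all genes did. Without the block Col25a1 came nearest, with adjusted p = 0.071. Its differences of MPTP from saline were -1.08 in the SN and 0.40 in the cortex. For MPTP+EX against MPTP, 3 of 35 members met it, Col19a1, Col5a1 and Col24a1, where 6.39% of all genes did. Col4a1 was not among them.

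The striatum library of E29 departed from the 11 other striatum libraries in most members. Of 32 members with a median above 1 FPKM in those 11, 17 were lower in E29 than in all of them, 4 were higher and 11 lay within their range. Of all genes above that level, 57.1% were lower and 29.2% were higher. Among the lower ones were Col4a1 at 2.37 FPKM against 5.002 to 8.14 FPKM, Col25a1 at 0.84 FPKM against 4.06 to 9.17 FPKM and Lamc1 at 1.63 FPKM against 6.50 to 10.4 FPKM. Col9a3 was high, at 29.6 FPKM against 6.59 to 25.9 FPKM, as were Col9a2, Col16a1 and Col26a1. Choroid plexus markers summed to 8797 FPKM in that library, against 119 to 3141 FPKM in the others.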

How the data were processed

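RNA of 48 tissue pieces was sequenced and the authors deposited 1 table of FPKM per gene, with no read counts, so the depth of each library is unknown and no counting interval is given. The submitters' processing notes name HISAT2 2.1, HTSeq 0.11 and the mm9 genome, the study's methods name Tophat2, Cufflinks and RSEM, and the sources used here do not say which of them gave these values. Names turned into dates (27) were dropped, and libraries were tied to mice by the start of the column name. limma 3.58.1 (R 4.3.3) was fitted to log2(FPKM + 1) with an intensity trend, over genes with a mean above 1 FPKM, with two-sided moderated tests and Benjamini-Hochberg adjustment over all genes of a fit. Regions were compared in the 16 saline libraries, treatments within a region over its 3 groups, and differences between regions over 47 libraries, always without the striatum library of E29. The mice were separate animals, so p-values of treatments within a region measure the spread between mice. The comparison of regions and the fit over 47 libraries counted the libraries of 1 mouse as separate samples unless a block is named. Their p-values therefore do not measure the spread between mice alone.

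Members and lists were chosen with earlier results of these data known. Named with values were 19 core chains, per region up to 8 called members that were highest and 4 that were lowest, per treatment comparison up to 6 members in each direction with the lowest p, and up to 3 genes of each other list. Where a library, a marker sum or a further member was singled out, it was chosen after its values were seen. Alternatives were a pseudocount of 0.1, no filter, scaling to a common median, 2-group fits, 1 fit over all 4 regions, a replicate block, the E29 library included and each mouse left out. The steps were tested on simulated data. Figures were drawn with matplotlib 3.10.9. A result that is counted among the members is not reported here.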

Additional observations from a re-analysis of the deposited data

Results flagged for a closer look

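In groups of 4 mice, a single mouse stood further from the other 3 than Dixon's critical value in 16 of 209 groups of the core chains, where chance alone gives about 1 in 20. Lamb2 made 7 of these, all high: 27.7 FPKM in the cerebellum, 21.4 FPKM in the cortex and 26.03 FPKM in the striatum of MPTP mouse M16, and 27.2 FPKM in the cerebellum, 27.6 FPKM in the cortex and 26.7 FPKM in the SN of saline mouse S1, with 21.7 FPKM in the striatum library named S2.

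Fibroblast collagens made 7. Among the chains other than Lamb2, these and the other 2 below were no more frequent than chance alone gives. In the cortex of saline mouse S1, Col1a1 was 4.999 FPKM against 2.17 to 2.30 FPKM in the others, Col1a2 was 8.44 FPKM against 2.39 to 3.03 FPKM, and Col3a1 was 1.27 FPKM against 0.181 to 0.344 FPKM. Col3a1 was high in the SN of MPTP mouse M21, at 1.30 FPKM. It was low in the cortex of MPTP+EX mouse E28, at 0.347 FPKM, and in the striatum of MPTP mouse M6, at 0.149 FPKM. Col1a1 was low in the cerebellum of E28, at 2.15 FPKM against 2.61 to 2.66 FPKM.

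The other 2 were Col5a1, high in the cortex of saline mouse S4 at 12.1 FPKM against 8.70 to 9.12 FPKM, and Col6a1, low in the cortex of MPTP mouse M6 at 36.4 FPKM against 41.6 to 42.1 FPKM.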

How the results depend on the processing

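The counts of members called between regions stayed within 1.5 times of 26, 20, 23 and 16 in the cerebellum, cortex, SN and striatum under the alternatives run. With a replicate block they were 27, 20, 24 and 16, and with the S1 and S2 striatum libraries crossed, chosen after the data were seen, 27, 20, 24 and 17. Deviations from the group means correlated above 0.1 in 10 of 24 pairs of libraries of the same saline mouse, and in 10 of 72 pairs of different saline mice. No paired analysis was possible because no number ties mice of different treatments. Leaving out 1 saline mouse gave 24 to 26, 17 to 19, 19 to 21 and 12 to 14 members.

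For MPTP against saline in the SN, the count of 0 members became 1 after scaling to a common median, 1 in the 2-group fit and 2 in 1 fit over all 4 regions, and 0 to 1 with a mouse left out. For MPTP+EX against saline in the SN it became 1 in the 2-group fit, 4 in 1 fit over all 4 regions, and 0 to 2 with a mouse left out. The MPTP response differing between regions gave 0 members, and 1, Col25a1, with a replicate block. Over the 4 regions, MPTP against saline gave 1 member, and 0 without any 1 of the 8 mice compared. With the striatum library of E29, Col4a1 in MPTP+EX against MPTP reversed to -0.0044 log2 units and Lamc1 in MPTP+EX against saline to -0.20. Where not given above, the cause of a change was not tested. FPKM without read counts limit what can be said of low genes. Counts at an unadjusted p under 0.05 were less steady. With a mouse left out, the share of all genes at this threshold moved too, as given above for the SN. That share is not given beside the counts below, so a changed count is not read as a change in the members alone. In MPTP+EX against MPTP in the SN, 7 members were higher and 1 lower, 5 and 0 without E27, and 12 and 1 without E29. In the cerebellum, 3 members met it in that comparison, 1 without E26, E27 or M23 and 5 without E28, and in MPTP+EX against saline 5 met it, 3 without E27 or E29 and 1 without E26 or S2. In the cortex, MPTP against saline gave 8, and 5 without M16, while MPTP+EX against saline gave 6, 3 without E27 and 2 without E28. In the striatum the count for MPTP against saline was 3, 5 without M6, 7 without S4, 1 without M16, S1 or S3 and 0 without M21. For MPTP+EX against MPTP there it was 2, 5 without E28, 4 without M6 and 1 without E27, M16 or M21, and for MPTP+EX against saline it was 1, 4 without E26, 3 without S2, 2 without E28 or S1 and 0 without E27 or S3.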
